A study of Bos taurus with 23 samples.

Results

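TAC3 (ENSBTAG00000021807) was followed in peripheral white blood cells (PWBC) of 23 heifers, as 1 gene of the 24616 genes in the count tables. It was chosen from the genes called in station B between non-pregnant and AI-pregnant heifers, so its values in that contrast are given as a description, without a test. The contrast of station A took no part in that choice and was tested. All animals were Angus-Simmental crossbred heifers whose estrous cycles were synchronized with GnRH, a progesterone insert and prostaglandin, and blood was drawn right after fixed-time artificial insemination (AI). Outcome was recorded later by palpation, so every sample preceded the pregnancy it was grouped by. Station A had 6 heifers pregnant to AI (AI-pregnant) and 5 pregnant to bulls later in the season (NB-pregnant, natural breeding). Station B had 6 AI-pregnant and 6 non-pregnant heifers. Each heifer is an independent animal with 1 library, and red blood cells were lysed before RNA extraction. Ages and phenotypes of single heifers were not used here.

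TAC3 encodes the precursor of neurokinin B, a short peptide of the tachykinin family that acts mainly through the receptor NK3, the product of TACR3. Neurokinin B is best known from hypothalamic neurons that also make kisspeptin and dynorphin, where it stimulates the pulsatile release of GnRH and where ovarian steroids regulate its gene. The gene is also expressed in the placenta, and white blood cells are not the tissue in which it is usually studied. In the RefSeq annotation of assembly ARS-UCD2.0, TAC3 lies between MYO1A and ZBTB39, both protein coding. The pair of qPCR primers that the study designed for its transcript is shown because it fixes the target in bases, written in lower case from 5′ to 3′.
TAC3 primer 1: gcaccttcaagtaccctcca
TAC3 primer 2: tcttcacgatgtagcccagg

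Depth limited precision little for this gene in most libraries. Total counts were 4826003 to 20053283 per library in station A and 5577129 to 20434401 in station B, and TAC3 had 52 to 6347 read pairs. Levels are read pairs of the gene per 1000000 pairs counted in the library (CPM). At the lowest level, 6.13 CPM in SL253808, the 95% Poisson interval was 4.58 to 8.03 CPM, and at 226 CPM in SL253811 it was 219 to 232 CPM; these intervals cover counting error only. In station B the libraries SL253804 and SL253811 (non-pregnant) and SL253808 (AI-pregnant) stood apart from the other 9 in their profile of all genes, and values are given with and without them. Whether their labels or libraries were exchanged cannot be told from the files, so the outcome groups of station B and the comparison of stations are read by the labels as given. In station A 5 libraries (SL220767, SL220771, SL220772, SL220773 and SL220774) had 24.1% to 29.4% of their counts in the 100 most abundant genes, against 13.1% to 18.4% in the other 6. Those 5 are called top-heavy here.

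TAC3 was an abundant transcript in station A and stood lower and more variably among the genes of station B. In AI-pregnant heifers of station A it had 116 CPM in SL220764, 409 in SL220765, 478 in SL220766, 158 in SL220771, 581 in SL220772 and 65.6 in SL220775. In NB-pregnant heifers it had 116 CPM in SL220767, 306 in SL220768, 317 in SL220769, 206 in SL220773 and 330 in SL220774. The AI-pregnant heifers held both the highest and the lowest value, and all 5 NB-pregnant heifers lay within their range. In AI-pregnant heifers of station B TAC3 had 6.85 CPM in SL253803, 33.3 in SL253807, 6.13 in SL253808, 8.18 in SL253809, 25.9 in SL253810 and 32.1 in SL253812. In non-pregnant heifers it had 130 CPM in SL253804, 13.2 in SL253805, 23.1 in SL253806, 226 in SL253811, 33.3 in SL253813 and 72.3 in SL253814. The 3 highest non-pregnant heifers (SL253811, SL253804 and SL253814) lay above every AI-pregnant heifer of their station, and the other 3 lay among them. Expressed per length of gene, as FPKM, TAC3 ranked 61 to 528 among 12128 retained genes in station A and 142 to 6000 among 10832 in station B. It lay above 95.6% or more of the genes in every station A library, and in station B above 82.3% or more in 8 libraries and above 44.6% to 70.7% in the other 4 (SL253803, SL253805, SL253808 and SL253809). These ranks depend on the gene length used for TAC3, 376 bp, and ranks by CPM are not given here.

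**Figure D1:**
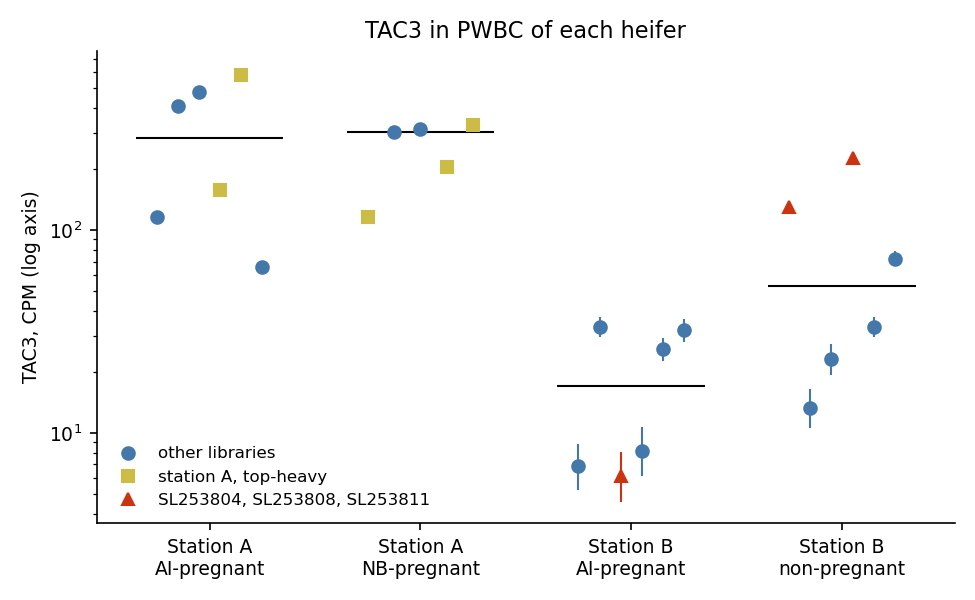
TAC3 in CPM (log axis) in each of the 23 heifers by station and outcome; lines are group medians, vertical bars 95% Poisson intervals, squares the top-heavy libraries of station A and triangles the 3 libraries of station B that stood apart. Station A heifers sit between 65.6 and 581 CPM, and the triangles of station B sit at 130, 6.13 and 226 CPM.

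By group the mean ± SD of station A was 301 ± 215 CPM over the 6 AI-pregnant and 255 ± 91.9 CPM over the 5 NB-pregnant heifers. For station B it was 82.9 ± 82.0 CPM over the 6 non-pregnant and 18.8 ± 13.1 CPM over the 6 AI-pregnant heifers. Ordered by median, the groups were NB-pregnant at station A (306 CPM), AI-pregnant at station A (283 CPM), non-pregnant at station B (52.8 CPM) and AI-pregnant at station B (17.1 CPM). The ranges of every neighbouring pair in this order overlapped. AI-pregnant heifers differed 8.86-fold among themselves in station A and 5.44-fold in station B. NB-pregnant heifers differed 2.85-fold, and non-pregnant heifers 17.1-fold.

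The comparison of NB-pregnant with AI-pregnant heifers asks whether TAC3 differed between heifers that conceived to AI and heifers that conceived later. The log2 fold change (NB against AI) was -0.24 (SE 0.53, edgeR likelihood ratio test P = 0.648, n = 11), and DESeq2 gave P = 0.762. With TMM factors and edgeR's quasi-likelihood test it was -0.17, with a Benjamini-Hochberg adjusted p of 0.999. The 95% interval ran from -1.28 to 0.79, or 0.413 to 1.73 as a fold, and differences within these bounds are not excluded by these heifers. TAC3 was not called by the rule of the study, a nominal threshold of 0.01 passed in edgeR and in DESeq2 alike. The lack of a call was known beforehand, since the paper's list for station A, made by that rule, does not hold TAC3. That rule called 18 of 12128 genes in this station, or 0.148%, with 8 higher (0.066%) and 10 lower (0.0825%) in NB-pregnant heifers. The quasi-likelihood test called 0 after adjustment and 101 (0.833%) at an unadjusted threshold of 0.05. Over all 12128 genes the fit had a median log2 fold change of -0.12, and TAC3 ranked 4816 by absolute fold change. In CPM the NB mean was lower by 46.4 CPM (difference -46.4; two-sided exact permutation test, P = 0.654, where 0.00433 is the smallest P possible). The direction turned with the scale, since on log2(CPM + 1) the NB mean was higher by 0.067 (exact permutation test, P = 0.918). It also turned without SL220772, the heifer with the highest level, where the log2 fold change was 0.056. Within the top-heavy libraries the NB mean was 217 CPM (n = 3) against 369 CPM in AI-pregnant heifers (n = 2). Within the other libraries the order was the opposite, 311 CPM in NB-pregnant (n = 2) against 267 CPM in AI-pregnant heifers (n = 4).

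In station B the contrast that chose TAC3 gave a log2 fold change (non-pregnant against AI-pregnant) of 2.17 (SE 0.73, n = 12), the third largest in absolute size of 10832 genes. The rule of the study called 6 genes there, or 0.0554%, of which 5 were higher (0.0462%) and 1 lower (0.00923%) in non-pregnant heifers. The quasi-likelihood test called 0 after adjustment there and 48 (0.443%) at an unadjusted threshold of 0.05. The size was lower without the libraries that stood apart. SL253811 and SL253804 held the highest non-pregnant values of TAC3, and SL253808 held the lowest AI-pregnant value. Leaving them out therefore had to lower the size, and the drop says nothing by itself about their profile. Without SL253811 alone the log2 fold change was 1.55, and it fell less without SL253804 alone or SL253808 alone. Without all 3 it was 0.74 (SE 0.53, n = 9). With the first principal component of all genes as a covariate it was 1.13 (SE 0.72). Among the 9 remaining libraries, TAC3 had 35.5 ± 25.9 CPM in non-pregnant (n = 4) and 21.3 ± 12.9 CPM in AI-pregnant heifers (n = 5), and only SL253814, at 72.3 CPM, lay above the AI-pregnant range. The study also reported TAC3 higher by qPCR in non-pregnant heifers of station B, from RNA of the same animals. The paper remarked that certain non-pregnant heifers mostly drove the call, while others were level with AI-pregnant heifers.

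**Figure D2:**
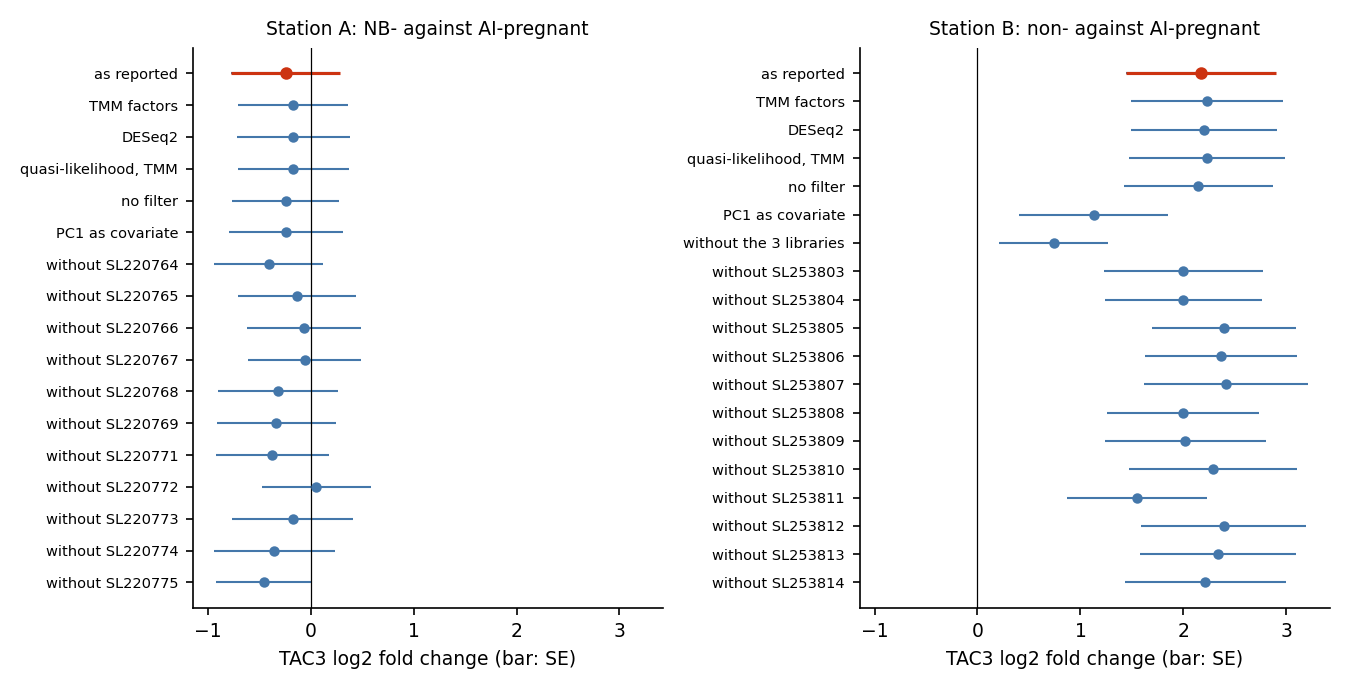
Log2 fold change of TAC3 with its SE (bars) as reported and under each alternative, station A on the left and station B on the right. Station A values lie on both sides of 0, from -0.45 to 0.056, and the station B value is smallest, 0.74, without the 3 libraries that stood apart.

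The larger difference was between stations. The median was 306 CPM over 11 heifers in station A and 25.9 CPM over the 9 like libraries of station B, an 11.8-fold difference, whereas the median gene of the 10422 retained in both stations stood at 0.857-fold. This was not peculiar to TAC3, which ranked 993 by this ratio, and 2301 genes (22.1%) were 4-fold or more higher in station A. Of the 9 libraries of station B, 8 lay below every station A heifer in TAC3, and 10 of the 11 station A heifers lay above all 9. Over all 12 libraries of station B the median was 29.0 CPM and the highest 226 CPM, and 6 station A heifers lay above all of them. These medians pool AI-pregnant with NB-pregnant heifers in station A and with non-pregnant heifers in station B. Among AI-pregnant heifers alone the medians were 283 CPM in station A and 17.1 CPM in station B. The lowest of those in station A, 65.6 CPM, lay above the highest in station B, 33.3 CPM. Station cannot be told apart from the library series, and in bulk cells fewer cells of a type and less RNA per cell cannot be told apart.

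The 3 libraries of station B were then placed between the stations for these 2301 genes, a description chosen after values had been seen. Position was set to 0 at the median of the 9 libraries and to 1 at the median of station A on the log2 CPM scale. The median gene sat at 0.940 in SL253804, 0.962 in SL253808 and 1.07 in SL253811, so in most of these genes the 3 libraries were near the levels of station A. In 2245 of the genes (97.6%) all 3 libraries were closer to station A. TAC3 sat at 0.653 in SL253804 and 0.876 in SL253811, with 3.30% and 7.13% of the genes below it. In SL253808, at -0.584, it was the lowest of all 2301 genes and the only one below the lowest of the 9 libraries, although its interval of 4.58 to 8.03 CPM covers the 6.85 CPM of the lowest of those, SL253803. The pattern of TAC3, closer to station A in SL253804 and SL253811 but not in SL253808, was that of 21 of the genes (0.913%), TAC3 itself and TFF2 among them. SL253808 is the AI-pregnant one of the 3, so this pattern is also the direction of the contrast by which both genes were chosen.

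**Figure D3:**
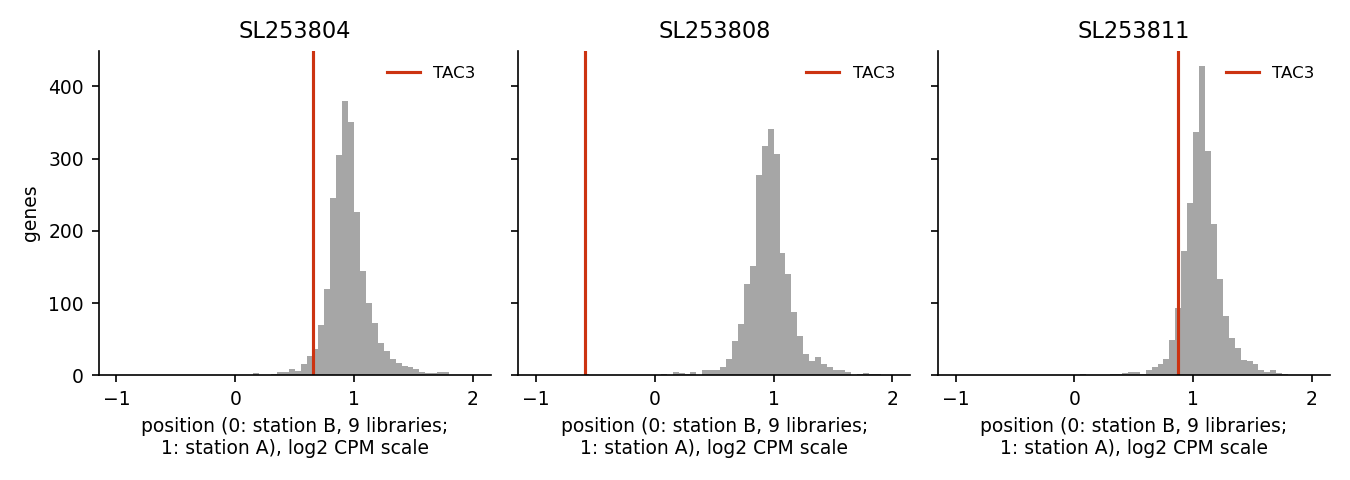
Histograms of the position of 2301 genes in SL253804, SL253808 and SL253811 on the log2 CPM scale, with 0 the median of the other 9 libraries of station B, 1 the median of station A, and a line for TAC3. TAC3 lies inside the histogram at 0.653 and 0.876 in the outer panels and left of all genes at -0.584 in the middle one.

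TAC3 varied more between heifers than most genes of its level. Its SD of log2 CPM was 0.99 across station A, against a median of 0.38 for the 687 genes within 0.5 log2 units of its level, and 95.1% of those genes varied less. Across the 9 like libraries of station B the SD was 1.07, against 0.36 for 1315 genes of like level, of which 99.1% varied less; these values were also those by which the gene was chosen. The spread within each kind of library in station A was of the same size, 0.92 over the 5 top-heavy libraries and 1.13 over the other 6. Among the 12 libraries of station B it was 1.63.

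**Figure D4:**
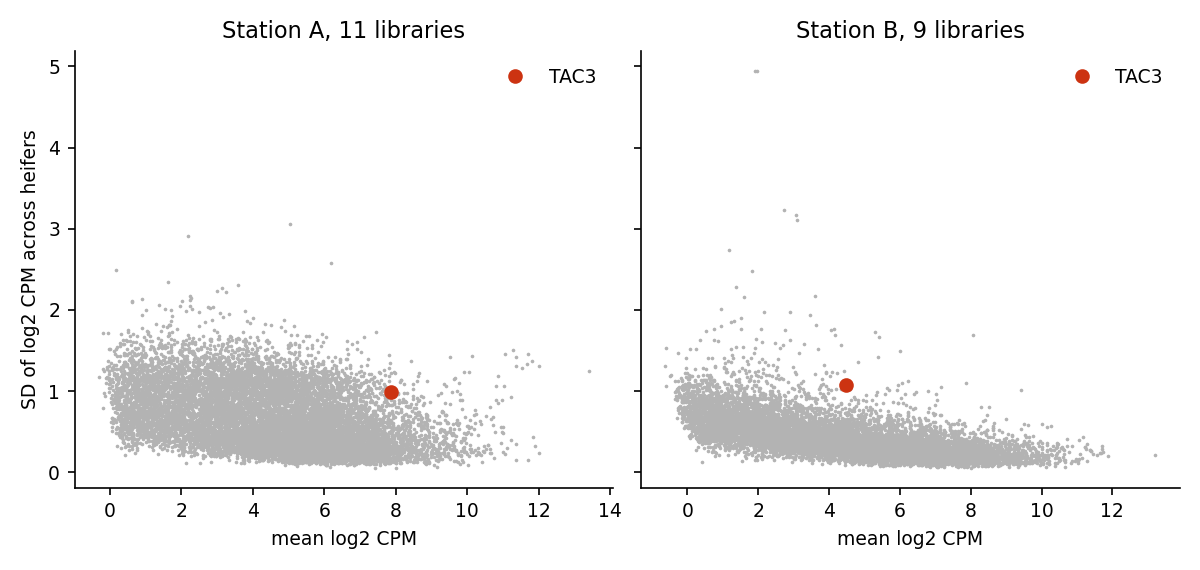
SD of log2 CPM across heifers against mean log2 CPM for each retained gene, 11 libraries of station A on the left and the 9 like libraries of station B on the right, with TAC3 marked. TAC3 lies in the upper part of the cloud at its level in both stations, with an SD of 0.99 and 1.07.

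In station A this spread did not follow the profile along which most other genes varied. The first principal component took 75.7% of the variance of log2 CPM, and the median gene had an absolute correlation of 0.856 with it. TAC3 had 0.00323, and 0.0742% of genes had less. Its level was 278 ± 188 CPM in the top-heavy libraries (n = 5) and 282 ± 162 CPM in the others (n = 6). In the 9 libraries of station B the first component took 38.6%, and TAC3 (0.586) was near the median gene (0.520).

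Genes of like pattern were sought within each station by Pearson's r of log2 CPM with TAC3, over 11 heifers in station A and the 9 like libraries in station B. These are descriptions over points that share library, depth and profile, and no P is given. In station A 16 of 12127 genes (0.132%) reached an r of 0.7 and 10 (0.0825%) an r of -0.7. Counting either sign TAC3 had 26 such partners, whereas the median gene had 6692.5 and 0.841% of genes had fewer. In station B 289 of 10831 genes (2.67%) reached 0.7 and 54 (0.499%) reached -0.7. Only 1 gene reached 0.7 in both.

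That gene was ENSBTAG00000002362, which the files pair with no symbol, with r = 0.73 in station A (rho 0.68) and 0.83 in station B (rho 0.73). Its own level was far lower than that of TAC3, with medians of 16.5 and 8.07 CPM. With any 1 heifer left out its r stayed between 0.693 and 0.812 in station A and between 0.775 and 0.887 in station B. It and the genes named next were picked by r in these same heifers. Their rho and left-out values are therefore no separate support for a relation. The highest r in station A belonged to ENSBTAG00000024482 (0.81, rho 0.81), a gene at 84.8 to 340 CPM there, which had 0.58 in station B. The lowest, ENSBTAG00000017504 (-0.85, rho -0.91), had a median of 2.49 CPM in station A and was not retained in station B. In station B the highest was ENSBTAG00000009719 (0.94, rho 0.78), which had -0.51 in station A. The lowest there, ENSBTAG00000015330 (-0.90, rho -0.77), had 0.15 in station A. So the genes at either end of station B were not at that end in station A. Across genes, which are not independent replicates, the r of both stations correlated at 0.21. Of the 100 genes with the highest r in station A, 93 were above 0 in station B, where 63.5% of all shared genes were. Of the 100 highest in station B, 50 were above 0 in station A, where 45.7% of all shared genes were.

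**Figure D5:**
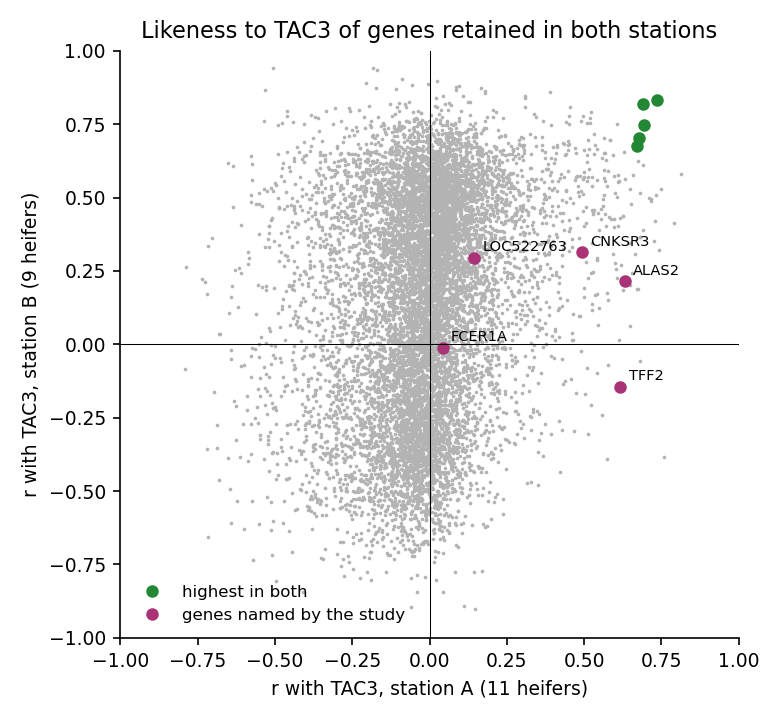
Pearson's r with TAC3 in station A (11 heifers, horizontal) and station B (9 heifers, vertical) for the 10421 genes retained in both, with the 5 genes of highest lower r in green and other genes of the study's list in purple. The green genes are at 0.67 to 0.73 in station A. TFF2 and ALAS2 lie to the right at 0.62 and 0.63, but at -0.14 and 0.22 in station B.

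The other genes called in station B were set beside TAC3, since they were chosen by the same contrast. ALAS2, the first enzyme of heme synthesis in red cell precursors, had a median of 80.9 CPM in station A and 4.09 CPM in the 9 libraries of station B, and 16.8, 4.95 and 44.3 CPM in SL253804, SL253808 and SL253811. TFF2, a small secreted peptide of mucosal surfaces, had 43.6 and 1.82 CPM, and 22.4, 3.77 and 69.8 CPM in the same libraries. Both shared with TAC3 values above the range of the other 9 libraries in SL253804 and SL253811. In SL253808 both lay within that range. By position between the stations only TFF2 had the pattern of TAC3, since ALAS2 in SL253804 was closer to the 9 libraries. With TAC3, ALAS2 had r = 0.63 in station A (rho 0.58), and without the 2 heifers farthest in level it was 0.34. TFF2 had r = 0.62 (rho 0.50), and 0.39 without 2 heifers. In the 9 libraries of station B these were 0.22 and -0.14, and over all 12 they were 0.69 and 0.57, so the relation in station B rested on the 3 libraries that stood apart.

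CNKSR3, a scaffold of the Ras and ERK pathway, was low (median 2.62 CPM in station A and 1.64 in the 9 libraries), with r of 0.49 and 0.31. LOC522763 had similar medians in both stations (5.90 and 5.82 CPM), with r of 0.14 and 0.29. SAXO2, a microtubule-associated protein and the gene called lower in non-pregnant heifers, was not retained in station A, where its median was 0.954 CPM, and had r = -0.32 in station B. None of the 4 genes retained in station A besides TAC3 (ALAS2, CNKSR3, LOC522763 and TFF2) was called there, with log2 fold changes of 0.34, 0.64, 0.60 and -0.0025. Their SEs were 0.59, 0.34, 1.03 and 0.84. The rule called 18 of 12128 genes (0.148%) in that station, so the lack of a call among 4 genes says little about them. It was also known beforehand, since the paper's list for station A, made by this rule from these heifers, holds none of them. CNKSR3 had the largest change for its SE, in the direction it had in station B.

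Lists of 87 symbols were drawn up for the tachykinin and kisspeptin pathway and for markers of blood cells, but the files name genes by identifier alone and only 2 of the symbols had an identifier in the study. FCER1A, the alpha chain of the high-affinity IgE receptor of basophils and mast cells, had r of 0.04 and -0.01 with TAC3. Without the 2 heifers farthest in level, the first value became 0.59 and the second 0.12. Over the 6 libraries of station A that were not top-heavy, r fell to -0.25. So the low value of station A depended on which heifers were counted. FCER1A was called lower in NB-pregnant heifers of station A (log2 fold change -1.28), as were 10 of 12128 genes (0.0825%). It was not called in station B. ALAS2, the marker of red cell precursors, was called higher in non-pregnant heifers of station B, as were 5 of 10832 genes (0.0462%). Both could be matched because the study listed them among its called genes. The call of FCER1A in station A and of ALAS2 in station B was therefore fixed in advance and is no result about cell types. The part of either cell type in the level of TAC3 was not tested, and TACR3, the other tachykinin genes and the remaining markers were not analysed here.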

How the data were processed

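RNA of PWBC from 23 heifers was sequenced from stranded mRNA libraries as paired reads. The authors trimmed and aligned reads to UMD 3.1, dropped multiply aligned and duplicate pairs, and counted the rest on Ensembl genes with HTSeq. The strand setting is not given in the sources used here, so reads of an overlapping gene on the other strand could count for TAC3. The deposited counts are whole, unnormalized read pairs for 24616 genes. The deposited FPKM, made by the authors, are the counts of retained genes per gene length and per total of the retained genes. The files gave TAC3 a length of 376 bp in every library.

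From the counts, CPM was computed on the library total, and log2 CPM with a prior count of 2. Following the study, genes above 1 CPM in 6 or more libraries of a station (12128 and 10832) were fitted per station with edgeR 4.0.16 (no normalization factors, robust dispersion, likelihood ratio test) and DESeq2 1.42.0, under R 4.3.3. The quasi-likelihood test with TMM was run beside them, and the steps were tested on simulated data. The SE of a fold change was derived from it and its likelihood ratio (its size divided by the root of that ratio). Permutation tests used scipy 1.17.1. Named genes were TAC3, those at both ends of r in each station (5 each, of which 1 is named by identifier), the 5 with the highest lower r, the other genes the study called in station B, and list genes that could be matched. TAC3, the lists and the tests were chosen with earlier results of these data known. Alternatives were TMM factors, other tools, no filter, the first component as covariate, Spearman's rho, a prior count of 0.5, and leaving out heifers.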

Additional observations from a re-analysis of the deposited data

Results flagged for a closer look

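TAC3 itself had no library standing far from the rest of its group. For TAC3 and the 11 genes named beside it, 48 groups were examined for a single heifer whose gap to the nearest other heifer was large for the range of the group, and 8 were found. Chance gives about 1 in 20 groups where values are normally distributed; its rate for CPM of genes chosen in this way was not measured. In non-pregnant heifers SL253814 had 426 CPM of ENSBTAG00000024482 (next 243) and 5.50 CPM of CNKSR3 (next 2.77), and SL253811 had 44.3 CPM of ALAS2 (next 16.8) and 69.8 CPM of TFF2 (next 22.4). In AI-pregnant heifers of station B SL253808 had 3.18 CPM of ENSBTAG00000017504 (next 0.441) and 37.5 CPM of ENSBTAG00000009719 (next 5.18). In NB-pregnant heifers SL220774 had 13.3 CPM of ENSBTAG00000009719 (next 19.9) and SL220768 had 152 CPM of TFF2 (next 44.1).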

How the results depend on the processing

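In station A the log2 fold change of TAC3 ran from -0.45 to 0.056 with 1 heifer left out, and the difference in CPM from -93.5 to 9.67. Without SL220772 they were 0.056 and 9.67 CPM, above 0, and on log2(CPM + 1) the difference was 0.067 (exact permutation test, P = 0.918). In station B the log2 fold change was 0.74 without SL253804, SL253808 and SL253811, and 1.55 to 2.41 with 1 heifer left out. Group means with TMM library sizes were 297, 264, 87.4 and 18.6 CPM in the order AI-pregnant and NB-pregnant at station A, non-pregnant and AI-pregnant at station B. Of the 10 genes at the ends of r in station A, 6 were found again with Spearman's rho, 5 with TMM factors, 4 after the first component, 10 with a prior count of 0.5, and 2 to 8 with 1 heifer left out. Of the 10 in station B these were 4, 7, 4, 10 and 1 to 8, and 0 with all 12 libraries. The fewest were found without SL220766 in station A and SL253814 in station B. No paired analysis applied, because each library came from a different heifer. The quasi-likelihood fit of the lists was not run, since they could not be matched. With 5 or 6 heifers a group and an SD of log2 CPM of 1.04 within groups of station A and 1.37 of station B, the spread between heifers, not counting, limited precision.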
